A study of Homo sapiens with 6 samples.

Results

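The genes of the collagen chains were followed in PC-3 cells given menthol or its vehicle. The members were the genes whose symbol is COL, a number, A and a number, with nothing after, on probesets that carry 1 gene symbol in the platform's annotation. They numbered 43 of 18404 genes measured, each read by the probeset that was brightest on average over the 6 arrays. PC-3 is an androgen-independent human prostate carcinoma line, and menthol is the cooling compound of mint. The menthol group was 3 arrays of PC-3 cells treated with menthol dissolved in ethanol, and the vehicle group was 3 arrays of the same line given ethanol alone, 0.1% in both. All cells were kept in DMEM with 10% fetal bovine serum. The sources used here give neither the menthol dose nor the time of treatment. The work rests on 1 cell line, and nothing in the labels says that the arrays of a group came from separate cultures, so every p-value speaks only of the spread among these 6 samples and may reflect technical spread alone.

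Collagens are the main structural proteins of the extracellular matrix. Each molecule is a helix of 3 chains that may be alike or come from different genes, wound from repeats in which glycine recurs at a fixed spacing. The chains are hydroxylated and glycosylated in the endoplasmic reticulum, secreted, trimmed and cross-linked outside the cell. Fibrillar collagens form the fibrils of connective tissue, collagen IV forms the sheet of the basement membrane that epithelia such as those of prostate glands rest on, and collagen VI forms beaded microfilaments around cells. A chain whose partner is missing is in general not secreted as a trimer.

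The data are log2 intensities of whole-transcript arrays, so 1 unit is a doubling. Array medians lay between 47.4 and 49.1 intensity units before the log, and the number of arrays limits the precision. Over the 43 collagens the median SD between arrays of a group was 0.09 with vehicle and 0.08 with menthol on the log2 scale. The epithelial keratin gene KRT8 lay at the 99.0th percentile of signal and EPCAM at the 95.9th, while KLK3, the gene of the prostate-specific antigen, lay at the 32.2nd. Of 9 epithelial markers measured 7 rose with menthol and 1 fell, and their summed intensity went from 7041 to 7443 with vehicle to 11688 to 12031 with menthol. Of 5 androgen-responsive prostate markers 0 passed the test. Of 11 fibroblast markers, chosen with no collagen among them, 2 rose and 2 fell, and their summed intensity was 682 to 717 with vehicle and 426 to 455 with menthol. PDGFRA carried most of that fall: without it the sums were 424 to 429 and 356 to 401. The fibroblast markers DCN, DPT, FAP and LUM were in the dimmest quartile of genes. Of 10 endothelial markers 3 rose and 0 fell (summed intensity 323 to 333 with vehicle and 450 to 477 with menthol), and CDH5, EMCN, ERG, TEK and VWF were in the dimmest quartile. Of 8 smooth muscle and pericyte markers 3 rose and 1 fell (371 to 389 and 418 to 440), and of 8 leukocyte markers 1 rose and 0 fell (593 to 627 and 697 to 742), with PTPRC and CD3E in the dimmest quartile. The leukocyte gene that rose was CD68, at the 87.2nd percentile of signal, from a mean log2 intensity of 8.92 with vehicle to 9.21 with menthol. KDR rose most of the endothelial genes, from 5.52 to 6.94. Sums without these genes were not computed. Of all genes measured, 14.6% rose and 14.5% fell by the same test. The part of the marker genes in the collagen results was not tested.

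Regulatory sequence of 5 stretches is shown here because the largest changes concerned chains of collagens IV and VI, and the chain genes of collagen IV lie in pairs that are transcribed away from each other. The sequences are RefSeq's, on build GRCh38.p14, and read 5′ to 3′ on the strand given. Capitals mark 3 motifs searched on both strands, the CCAAT box (CCAAT), the GC box (GGGCGG) and the TATA box (TATAAA). The first is the whole stretch of 126 bases between the start of COL4A1, to its left, and that of COL4A2, to its right (chr13:110307158-110307283, plus strand). The second is the whole stretch of 135 bases between COL4A4 and COL4A3 (chr2:227164489-227164623, plus strand). The others are the 250 bases before the start of COL4A5 (chrX:108439588-108439837, plus strand), of COL6A2 (chr21:46097862-46098111, plus strand) and of COL6A3 (chr2:237414165-237414414, minus strand).
COL4A1-COL4A2: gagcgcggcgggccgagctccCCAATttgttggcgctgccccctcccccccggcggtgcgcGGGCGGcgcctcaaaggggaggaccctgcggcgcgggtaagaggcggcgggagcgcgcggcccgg
COL4A4-COL4A3: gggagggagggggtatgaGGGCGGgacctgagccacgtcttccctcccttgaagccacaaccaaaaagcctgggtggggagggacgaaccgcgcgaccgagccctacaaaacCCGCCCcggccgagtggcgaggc
COL4A5: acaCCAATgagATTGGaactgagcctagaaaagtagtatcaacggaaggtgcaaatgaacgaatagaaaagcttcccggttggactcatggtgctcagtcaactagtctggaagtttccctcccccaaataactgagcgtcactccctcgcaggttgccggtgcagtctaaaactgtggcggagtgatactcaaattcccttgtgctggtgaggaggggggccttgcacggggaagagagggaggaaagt
COL6A2: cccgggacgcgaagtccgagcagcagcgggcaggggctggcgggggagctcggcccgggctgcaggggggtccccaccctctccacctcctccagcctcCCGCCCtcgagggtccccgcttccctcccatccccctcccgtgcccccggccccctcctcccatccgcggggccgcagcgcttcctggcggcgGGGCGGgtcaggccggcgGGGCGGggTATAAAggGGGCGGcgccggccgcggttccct
COL6A3: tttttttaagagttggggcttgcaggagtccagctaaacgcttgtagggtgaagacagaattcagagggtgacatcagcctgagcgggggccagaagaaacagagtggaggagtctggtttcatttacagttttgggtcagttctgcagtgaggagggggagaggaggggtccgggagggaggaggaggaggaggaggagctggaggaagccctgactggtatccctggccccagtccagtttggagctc

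The stretch shared by COL4A1 and COL4A2 held 1 CCAAT box and 1 GC box and was 80.2% G or C. That shared by COL4A4 and COL4A3 held 2 GC boxes and no CCAAT box. Its edge at COL4A4 was the outer end of that gene in RefSeq. The tabulated window of COL4A4, counted below, held no GC box and so does not cover this whole stretch. The stretch before COL4A5 held 2 CCAAT boxes and no GC box. Those before COL6A2 and COL6A3 differed in the same terms: COL6A2 had 4 GC boxes, 1 TATA box and 79.6% G or C, and COL6A3 had none of the motifs and 56.0% G or C. Of the 43 collagens, 31 had a tabulated promoter window of 300 bases, 250 before and 50 after the start. A CCAAT box lay in at least 1 window of 11 of these 31 (35.5%, against 39.7% of 27305 genes), a GC box in 21 (67.7%, against 48.3%) and a TATA box in 6 (19.4%, against 14%). The 27305 are all genes with such a window, whether or not they were among the 18404 measured. Of the 8 collagens that fell with menthol only 4 had a window, and COL6A1 was not among them. A GC box lay in 3 of those 4, in 2 of 5 that rose and in 16 of 22 that did not pass. Among the 3 are COL4A1 and COL4A2, whose windows both cover the stretch printed first. Its 1 GC box therefore counts for both genes. These matches are a description of letters in the windows and say nothing of which factors bind.

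Of the 43 collagens, 8 fell and 6 rose with menthol, and 29 did not pass the test (limma, adjusted p under 0.05 with Benjamini-Hochberg adjustment over all 18404 genes). Of all genes 14.5% fell and 14.6% rose by the same rule, so 8 lower collagens (18.6%) and 6 higher ones (14%) were near the background. The count of higher collagens was not stable: it was 1 with vehicle array 1 or 3 or menthol array 1 left out, 4 without vehicle array 2, 3 without menthol array 2 and 2 without menthol array 3, while the count of lower ones stayed at 8. With array medians set equal 2 rose and 8 fell, under cyclic loess 2 rose and 9 fell, and under quantile normalization 5 rose and 9 fell. Of the 14 collagens past the test, 7 had changed at least 1.5-fold. Those were COL4A1, COL4A2, COL6A2, COL6A1, COL5A2 and COL4A5 among the decreases and COL6A3 among the increases. They made up 16.3% of the collagens, beside 5.61% of all genes with such a change (2.62% lower and 2.99% higher). The median log2 fold change, menthol minus vehicle, was 0.10 over the collagens and 0.03 over all genes, and the mean over the collagens was -0.05. The groups did not overlap in 26 collagens (60.5%), 11 lower and 15 higher, beside 45.3% of all genes (21.7% lower and 23.5% higher). Of the 29 that did not pass, 19 had a positive and 10 a negative change, between -0.23 and 0.28, and 9 had an unadjusted p under 0.05.

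**Figure D1:**
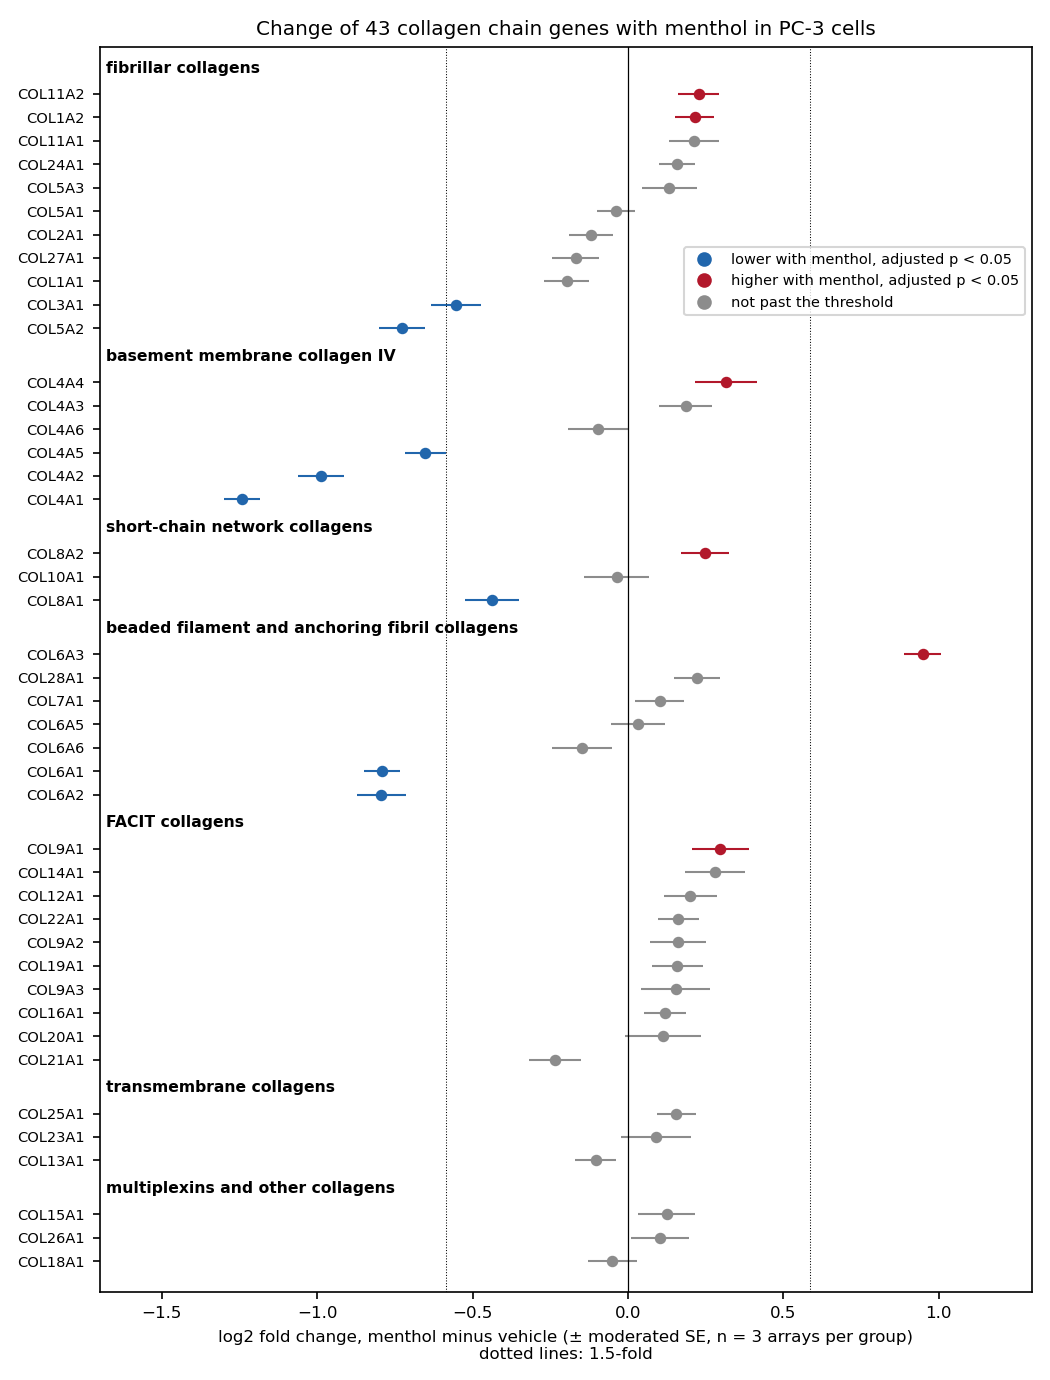
Log2 fold change (menthol minus vehicle, ± moderated SE, n = 3 arrays per group) of each of the 43 collagen chain genes, in the classes of their proteins; blue and red points passed the test, grey ones did not, and dotted lines mark 1.5-fold. COL4A1 lies farthest to the left at -1.24 and COL6A3 farthest to the right at 0.95, while the FACIT, transmembrane and multiplexin classes lie between -0.23 and 0.30.

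Collagen IV showed the largest decrease of the family. COL4A1 and COL4A2, whose chains join in the collagen IV of nearly all basement membranes, both fell. The log2 intensity of COL4A1 was 7.81, 7.74 and 7.80 on the vehicle arrays and 6.57, 6.53 and 6.52 on the menthol arrays. The lowest vehicle array was thus well above the highest menthol array, and the gene fell by 1.24 ± 0.06 (SE, n = 3 per group), 2.37-fold, with a limma adjusted p of 3.4e-05. In RNA from whole cultures, fewer cells that express a gene and less of its RNA per cell cannot be told apart. COL4A2 read 8.04, 8.02 and 8.11 with vehicle and 7.19, 6.98 and 7.02 with menthol. Its groups did not overlap either, and it fell by 0.99 ± 0.07, or 1.98-fold (limma adjusted p = 0.00014). The starts of these genes are the nearest of the 3 pairs, 126 bases apart in the sequence printed first. The decrease of COL4A1 was larger than that of COL4A2 by 0.25 ± 0.05 on the log2 scale (exact permutation p = 0.10, two-sided, the smallest that 3 against 3 arrays can give).

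The other chains of collagen IV did not follow as a set. COL4A5, a chain of the basement membranes of kidney, lung and skin, read 6.88, 6.79 and 6.87 with vehicle and 6.14, 6.28 and 6.16 with menthol, with no overlap. It fell by 0.65 ± 0.07 (limma adjusted p = 0.00043). COL4A6, which lies 379 bases from COL4A5 on the opposite strand and whose chain can join that of COL4A5, read 5.25, 5.26 and 5.07 with vehicle and 4.91, 5.17 and 5.20 with menthol. These groups overlapped, and COL4A6 did not pass (-0.10 ± 0.10, adjusted p = 0.50). The change of COL4A5 differed from that of COL4A6 by -0.56 ± 0.11 (exact permutation p = 0.10, the smallest possible). COL4A4, a chain of the glomerular basement membrane, read 4.61, 4.77 and 4.64 with vehicle and 5.09, 5.09 and 4.78 with menthol. Its lowest menthol array was barely above its highest vehicle array, and it rose by 0.32 ± 0.10 just inside the threshold (limma adjusted p = 0.049). Leaving out any vehicle array, or menthol array 1 or 2, ended that call, with an adjusted p of up to 0.14. COL4A3, its partner across 135 bases, read 4.54, 4.70 and 4.51 with vehicle and 4.69, 4.71 and 4.90 with menthol, with overlap, and missed the threshold (0.19 ± 0.09, adjusted p = 0.14). Of the 6 chain genes of collagen IV, 3 fell, 1 rose and 2 did not pass, with a median of -0.37. Of all genes 14.5% fell and 14.6% rose, and 6 genes are few to set beside such shares.

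In collagen VI the chains of 1 molecule moved in opposite directions. The common form of collagen VI joins the chains of COL6A1, COL6A2 and COL6A3 before secretion, and the COL6A3 chain is the longest of them. COL6A1 read 10.70, 10.69 and 10.70 with vehicle and 9.94, 9.85 and 9.92 with menthol, and fell by 0.79 ± 0.06, or 1.73-fold (limma adjusted p = 0.00013). COL6A2 read 10.29, 10.25 and 10.40 with vehicle and 9.61, 9.56 and 9.39 with menthol. All 3 menthol arrays were below all vehicle arrays in both genes, and COL6A2 fell by 0.79 ± 0.08 (limma adjusted p = 0.00042). COL6A3 read 7.37, 7.39 and 7.33 with vehicle and 8.30, 8.27 and 8.36 with menthol. Here every menthol array was above every vehicle array, and COL6A3 rose by 0.95 ± 0.06, or 1.93-fold (limma adjusted p = 6.8e-05), the only collagen to rise at least 1.5-fold. The changes of COL6A1 and COL6A2 differed by 0.003 ± 0.084 (exact permutation p = 1). The change of COL6A3 exceeded that of COL6A1 by 1.74 ± 0.03 and that of COL6A2 by 1.74 ± 0.11 on the log2 scale, in both cases with the smallest exact permutation p the arrays allow, 0.10. Since COL6A3 was higher and COL6A1 and COL6A2 lower on every menthol array, this p was fixed by those values and adds no support. The further collagen VI chains COL6A5 and COL6A6 were dim, at the 2.43rd and 10.5th percentile of signal, and did not pass (0.03 ± 0.09 and -0.15 ± 0.10). COL7A1, the anchoring fibril collagen that ties the basement membrane of skin to the tissue under it, did not pass (0.10 ± 0.08), nor did COL28A1, a collagen near nerves, which was just outside the threshold (0.22 ± 0.07, adjusted p = 0.059).

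**Figure D2:**
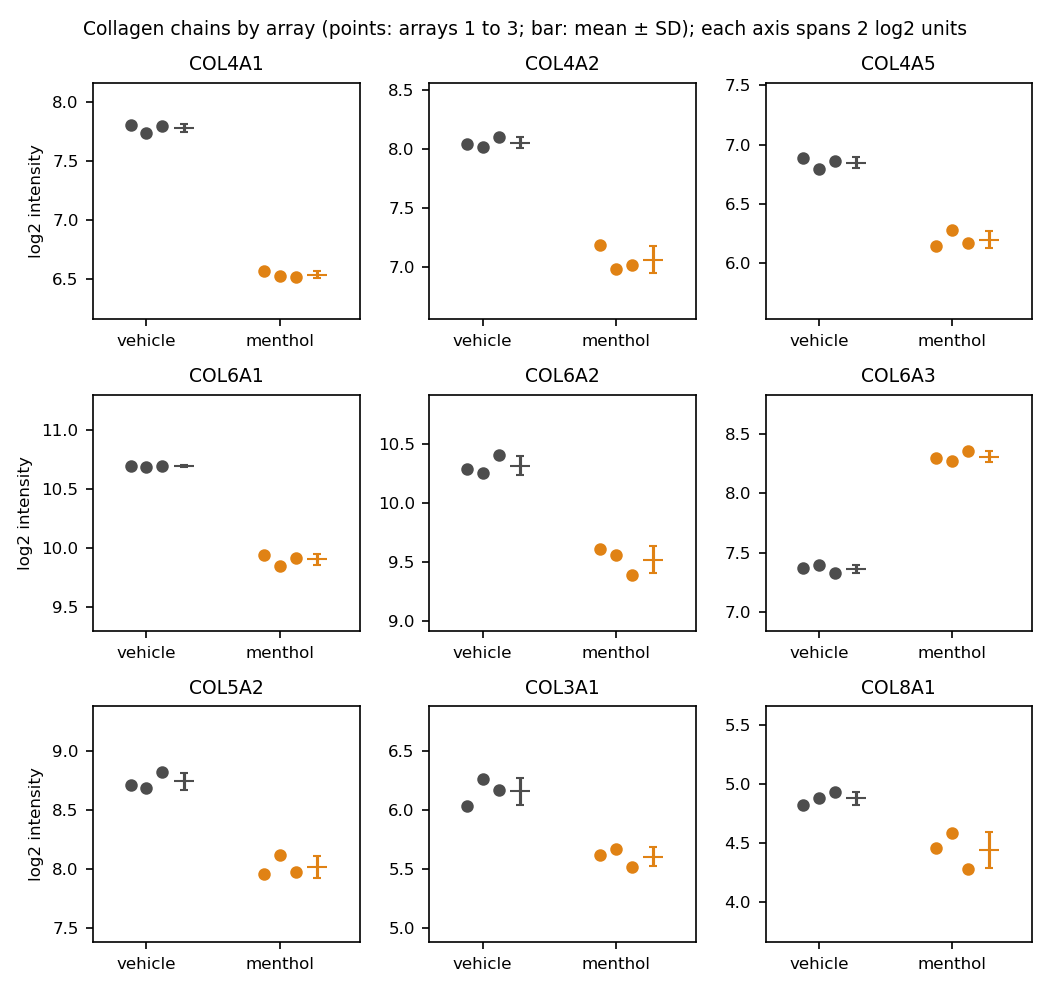
Log2 intensity of 9 collagen genes on each array (points, 3 vehicle arrays in grey and 3 menthol arrays in orange) with the group mean ± SD beside them; each vertical axis spans the same range of 2 log2 units around the gene's own mean. In COL6A3 the menthol arrays lie from 8.27 to 8.36, above the vehicle arrays at 7.33 to 7.39, and in the other 8 genes they lie below.

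Among the fibrillar collagens 2 of 11 fell and 2 rose, beside 14.5% and 14.6% of all genes, so these counts were near the background. COL5A2, a chain of collagen V, which lies inside collagen I fibrils and limits their width, read 8.71, 8.69 and 8.82 with vehicle and 7.95, 8.12 and 7.97 with menthol. The groups were well apart, and COL5A2 fell by 0.73 ± 0.07, or 1.65-fold (limma adjusted p = 0.00043). Its partner chains COL5A1, at 6.24, 6.17 and 6.12 with vehicle and 6.16, 6.14 and 6.11 with menthol, and COL5A3, at 6.38, 6.34 and 6.10 with vehicle and 6.45, 6.42 and 6.34 with menthol, overlapped between the groups and did not pass (-0.04 ± 0.06 and 0.13 ± 0.09). The change of COL5A2 differed from that of COL5A1 by -0.69 ± 0.09 (exact permutation p = 0.10, the smallest possible). COL3A1, the collagen of pliable tissue such as vessel walls, read 6.03, 6.26 and 6.17 with vehicle and 5.62, 5.67 and 5.51 with menthol. It fell by 0.55 ± 0.08 (limma adjusted p = 0.0021), with no overlap between the groups.

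The genes of collagen I, the main collagen of bone, skin and tendon, showed small differences. COL1A1 read 8.0, 7.85 and 7.89 with vehicle and 7.79, 7.63 and 7.72 with menthol, lower on all menthol arrays, and did not pass (-0.20 ± 0.07, adjusted p = 0.076). It passed, as lower, in 5 alternatives: a pseudocount of 16, both filters on dim genes, the trended prior, and array weights. COL1A2 read 5.53, 5.49 and 5.39 with vehicle and 5.67, 5.68 and 5.71 with menthol, higher on all menthol arrays, and rose by 0.21 ± 0.06 (limma adjusted p = 0.039). Leaving out any 1 of the 6 arrays ended the call of COL1A2, with an adjusted p of 0.060 to 0.12. COL11A2, a chain of cartilage fibrils, rose by 0.23 ± 0.07 (limma adjusted p = 0.035) on the brighter of its 2 probesets, while the other read 0.04 ± 0.20, and the mean of both did not pass (adjusted p = 0.40). Among the omissions of 1 array, its call held without vehicle array 2 and ended without any other, with an adjusted p of up to 0.11. The 7 fibrillar genes that did not pass lay between -0.20 and 0.21. With any array but vehicle array 2 left out, 2 fibrillar genes passed in place of 4.

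COL8A1 and COL8A2, the short chains of the collagen VIII network found under endothelium, moved apart. COL8A1 read 4.82, 4.89 and 4.93 with vehicle and 4.46, 4.59 and 4.28 with menthol, and fell by 0.44 ± 0.09 (limma adjusted p = 0.0083) with no overlap. COL8A2 read 5.69, 5.92 and 5.73 with vehicle and 5.99, 6.02 and 6.07 with menthol, a narrow gap, and rose by 0.25 ± 0.08 near the threshold (limma adjusted p = 0.047). The change of COL8A1 differed from that of COL8A2 by -0.68 ± 0.13 (exact permutation p = 0.10, the smallest possible). With COL8A1 lower and COL8A2 higher on every menthol array, that p too was fixed by the values of each chain. Leaving out vehicle array 1 or 3, or any menthol array, ended the call of COL8A2, with an adjusted p of up to 0.15. COL10A1, the collagen of cartilage that is turning to bone, was dim and did not pass (-0.04 ± 0.10).

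The FACIT collagens, which attach to the surface of fibrils, held 1 increase and no decrease among 10 genes, where 14.6% of all genes rose and 14.5% fell, and such counts say little of the class. COL9A1 rose by 0.30 ± 0.09 (limma adjusted p = 0.044), from 4.76, 4.93 and 4.60 with vehicle to 5.08, 4.99 and 5.10 with menthol. Its partner chains COL9A2 and COL9A3 read 0.16 ± 0.09 and 0.15 ± 0.11 and did not pass. The same 5 omissions ended the call of COL9A1, with an adjusted p of up to 0.12. Cyclic loess, the trended prior, array weights and the replicate block ended it too. COL14A1 was just outside the threshold (0.28 ± 0.10, adjusted p = 0.063). COL12A1, a FACIT collagen of tendon and of tumour stroma, was 7.54, 7.47 and 7.48 with vehicle and 7.56, 7.67 and 7.86 with menthol and did not pass (0.20 ± 0.09, adjusted p = 0.12). COL21A1 was the lowest of the class at -0.23 ± 0.08 (adjusted p = 0.074), and it passed as lower under quantile and cyclic loess normalization. None of the 3 transmembrane collagens measured (COL13A1, COL23A1 and COL25A1) passed, nor did COL15A1 and COL18A1, which are basement membrane collagens that also carry glycosaminoglycan chains, or COL26A1. At an unadjusted p under 0.05, COL25A1 was the single gene of these 6, at 0.16 ± 0.06.

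The plot of change against level sets the collagens beside all genes of like signal. Genes were ranked by mean signal into quartiles of 4601. In the brightest quartile all 3 collagens, COL6A1, COL6A2 and COL5A2, fell, beside 26.9% of all its genes that fell and 17.2% that rose. In the next, 3 of 9 collagens fell, COL4A1, COL4A2 and COL4A5, and COL6A3 rose, beside 20.2% and 17.5% of its genes. In the second quartile from the dim end 5 of 18 collagens rose and 1, COL3A1, fell, beside 13.4% and 9% of its genes, and these 5 are the small increases of 0.21 to 0.32. In the dimmest quartile COL8A1 fell and 0 of 13 rose, beside 1.91% and 10.3% of its genes. The median log2 fold change of all genes went from 0.10 in the dimmest quartile to -0.05 in the brightest, and that of the collagens from 0.16 to -0.79. The intensity of a probeset depends on its probes as well as on RNA, so these levels rank signals and not amounts of RNA.

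**Figure D3:**
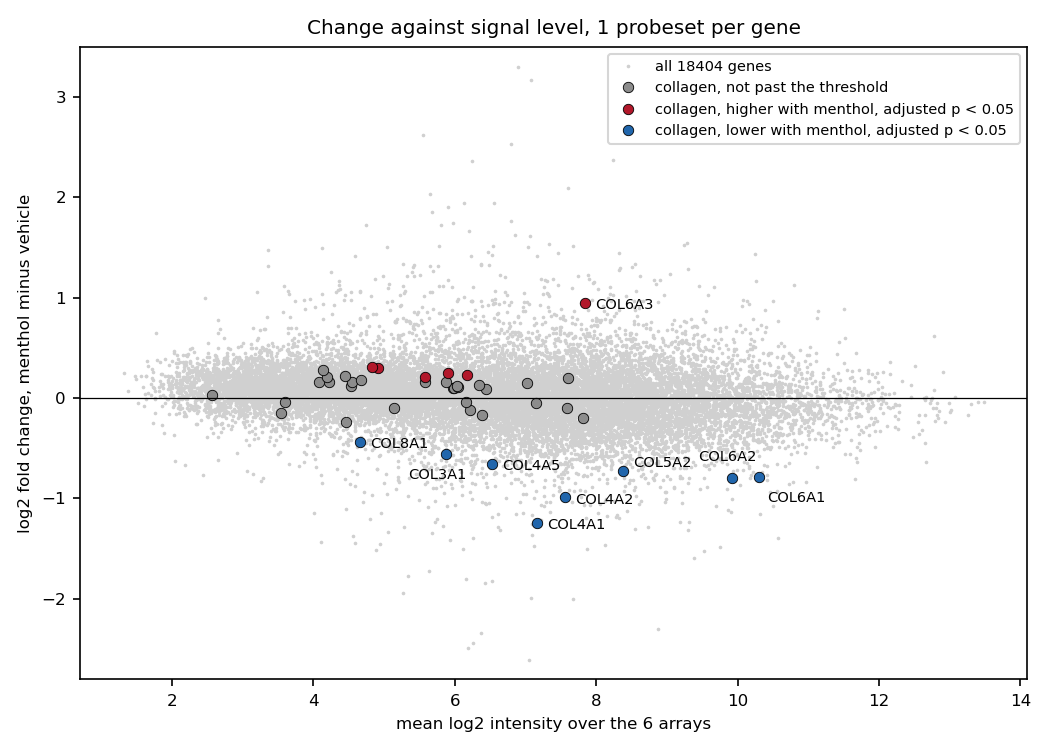
Log2 fold change (menthol minus vehicle) against mean log2 intensity over the 6 arrays for all 18404 genes (light grey) and the 43 collagens (large points, coloured by the test). The 5 small collagen increases lie in the dimmer part of the range at 0.21 to 0.32, and COL6A3 stands above them at 0.95.

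Chains of the same collagen type were compared in 13 pairs, chosen after the values were seen. Not every pair of a type is among them. COL4A5, which fell, with COL4A4, which rose, and COL5A2 with COL5A3 were left out, so the counts depend on this choice. Both chains fell in 2 of the pairs, COL4A1 with COL4A2 and COL6A1 with COL6A2. In 3 of the pairs 1 chain fell and the other rose: COL6A3 against COL6A1, COL6A3 against COL6A2, and COL8A1 against COL8A2. The difference between the chains' changes had the smallest possible exact permutation p of 0.10 in 7 of the 13 pairs, which becomes 0.19 after Benjamini-Hochberg adjustment over the pairs, so no pair could pass 0.05 with these arrays. Where 1 chain was higher and the other lower on every menthol array, this p was fixed by the values of each chain. In the order of protein-coding genes on GRCh38.p14, 7 pairs of measured collagens are direct neighbours. Both genes fell in 3 of these 7, COL4A1 with COL4A2, COL6A1 with COL6A2 and COL3A1 with COL5A2. These hold 6 of the 8 collagens that fell. The share of neighbouring pairs among all genes that both fell was not counted, so this describes positions only. In the other 4 neighbouring pairs at most 1 gene passed: COL4A5 fell beside COL4A6, COL4A4 rose beside COL4A3, COL9A1 rose beside COL19A1, and COL6A5 and COL6A6 did not pass.

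Genes that make, export, trim, cross-link, bind and degrade collagen were counted in 8 lists with 89 genes measured, of which 21 rose and 23 fell. Over all genes 14.6% rose and 14.5% fell, 29.1% in either direction, and each list's count stands beside these shares. The shares differ with signal, from 10.3% higher and 1.91% lower in the dimmest quartile to 17.2% and 26.9% in the brightest. The lists were not matched for signal. Enzymes and chaperones that modify and fold the chains showed small changes: 3 of 18 rose and 5 fell (44.4% past the test, beside 29.1% of all genes), with a median of -0.11. Most of these genes were in the brightest quartile, so their share past the test was near that of genes of like signal. P4HA3, of a catalytic chain of prolyl hydroxylase, rose by 0.35 ± 0.08, a call that ended with vehicle array 2 or 3 left out, and the prolyl hydroxylase family gene P3H3 fell by 0.33 ± 0.06. PLOD2, the lysyl hydroxylase of the chain ends, rose by 0.37 ± 0.08, and the prolyl isomerase gene FKBP14 rose by 0.38 ± 0.06. P4HA1, of another catalytic chain, fell by 0.32 ± 0.06, and the collagen chaperone gene SERPINH1 did not pass (-0.14 ± 0.06, adjusted p = 0.13); both are named after their values were seen. With vehicle array 3 left out, 5 genes of this list passed in place of 8. Of 11 genes of procollagen export 2 rose and 1 fell, and this 27.3% was near the 29.1% of all genes. Most of the 11 were in the brightest quartile too, so 27.3% was below the share of genes of like signal. A list of 11 genes is short for such a comparison. The coat genes SEC31A and SAR1A rose by 0.29 ± 0.07 and 0.26 ± 0.06, and MIA3, which loads procollagen into carriers, fell by 0.27 ± 0.08. Leaving out any array but menthol array 3 ended the call of MIA3, as did quantile and cyclic loess normalization. With vehicle array 1 or 2 or menthol array 2 left out, SEC31A lost its call as well, and 1 gene of this list passed in place of 3.

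Of 11 genes that trim the propeptides 2 rose and 3 fell (45.5% past the test, beside 29.1% of all genes). TLL1, a protease of the family that removes the C-terminal propeptide, fell by 0.62 ± 0.09, and ADAMTS3, of a protease of the N-terminal one, fell by 0.39 ± 0.07. PCOLCE2, an enhancer of the C-terminal cut, rose by 0.35 ± 0.08. MEP1B, a protease that can also cut propeptides, rose by 0.40 ± 0.10 at the 7.45th percentile of signal, a call that ended with vehicle array 2 or 3 or menthol array 2 left out, where 3 genes of this list passed in place of 5. Cyclic loess and a pseudocount of 16 ended it too. All 7 cross-linking genes measured passed, 4 lower and 3 higher, with a median of -0.52, beside 29.1% of all genes. With any array but menthol array 1 left out, 6 of the 7 passed. The lysyl oxidases, which start the covalent cross-links of fibrils, went both ways: LOXL4 fell by 2.30 ± 0.07, LOX fell by 1.28 ± 0.10 and LOXL2 fell by 0.68 ± 0.06, while LOXL1 rose by 0.42 ± 0.06 and LOXL3 rose by 0.24 ± 0.07. TGM2, a transglutaminase, rose by 1.16 ± 0.06. PXDN, the peroxidase that makes the sulfilimine bond between collagen IV molecules, was lower by the test at -0.52 ± 0.07 (limma adjusted p = 0.0014). LOXL1, LOXL3 and PXDN are named after their values were seen.

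The partners of collagen IV in the basement membrane held 5 decreases and 2 increases among 13 genes (53.8% past the test, beside 29.1% of all genes). The laminin chain gene LAMA4 fell by 1.82 ± 0.08, from 7.39, 7.46 and 7.46 with vehicle to 5.51, 5.59 and 5.75 with menthol. NID1, whose product nidogen links laminin to collagen IV, fell by 1.07 ± 0.11, while its paralogue NID2 rose by 0.62 ± 0.08. NID1 read 7.71, 7.72 and 7.83 with vehicle and 6.45, 6.74 and 6.87 with menthol, and NID2 read 5.48, 5.45 and 5.32 with vehicle and 5.99, 6.19 and 5.95 with menthol. Neither gene's groups overlapped. LAMB3, a chain of the laminin that anchors epithelia, rose by 1.03 ± 0.06. Of 13 genes of proteins that bind fibrils or cells to them, 5 rose and 3 fell (61.5%, beside the same 29.1%). The tenascin gene TNC fell by 1.02 ± 0.06, and the fibronectin gene FN1 fell by 0.73 ± 0.06. The thrombospondin gene THBS1 rose by 0.60 ± 0.06, and the small proteoglycan gene OGN rose by 0.51 ± 0.09. OGN was at the 4.87th percentile of signal, and its change lay between 0.16 and 0.57 across the alternatives. DCN and POSTN, named after their values were seen, also rose and were at the 1.95th and 5.41st percentile. Part of this list's count thus rests on very dim probesets. With vehicle array 2 or menthol array 3 left out, 5 genes of this list passed in place of 8.

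Among collagen receptors 2 of 9 rose and 1 fell, and this 33.3% was near the 29.1% of all genes. MRC2, a receptor that takes up collagen fragments, fell by 0.42 ± 0.09, the discoidin receptor gene DDR2 rose by 0.30 ± 0.08, and the integrin chain gene ITGA2 rose by 0.26 ± 0.08. With vehicle array 2 or 3 or menthol array 2 or 3 left out, MRC2 alone of these 9 passed. With the mean of all its probesets in place of the brightest, DDR2 read 0.11 and lost its call (adjusted p = 0.66), and it lost it too under the trended prior. ITGA2 lost its call with array medians set equal. Of 7 collagenases and gelatinases 2 rose and 1 fell (42.9%, beside 29.1% of all genes). MMP14, a membrane-bound collagenase, rose by 0.79 ± 0.06, and the interstitial collagenase gene MMP1 rose by 0.70 ± 0.09. MMP13 fell by 0.63 ± 0.19 (limma adjusted p = 0.044), a call that held only with vehicle array 1 left out among the 6 omissions and ended with array weights.

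**Figure D4:**
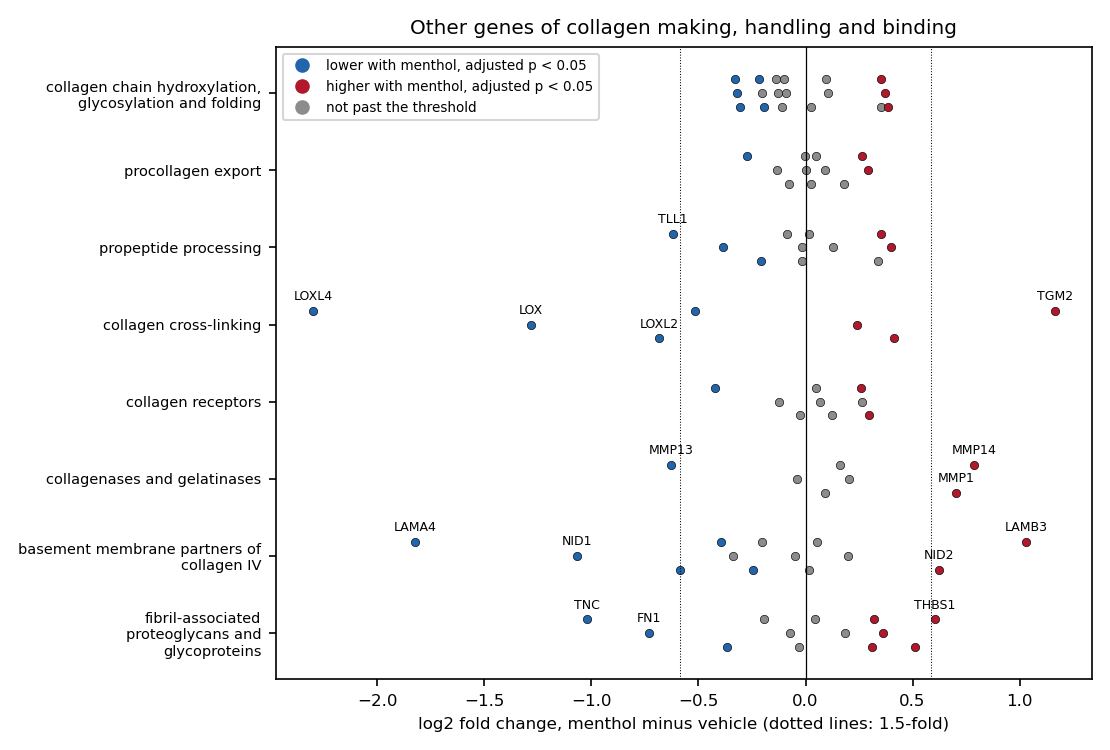
Log2 fold change (menthol minus vehicle) of the 89 further genes of collagen making, handling and binding, 1 row for each list and 1 point for each gene, coloured by the test; genes past 1.5-fold are named. The row of cross-linking genes spans the widest range, from LOXL4 at -2.30 to TGM2 at 1.16.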

How the data were processed

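RNA of 6 samples was measured on Affymetrix whole-transcript arrays, 300 ng of total RNA each per the labels' protocols. The authors deposited intensity values of 32321 probesets on a linear scale, processed with RMA per the submitters' processing notes. Log2 was taken of these values, with no filter on low values. Probesets with 1 gene symbol (19158) were kept, and those with several (1388) or none named here (11775) left out. The collagen probesets numbered 44, and 1 more, shared by PNLIP and COL1A2, was left out. COL17A1 was not analysed here. All 43 symbols matched RefSeq of GRCh38.p14.

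The fit was limma's (version 3.58.1, under R 4.3.3) by lmFit and eBayes, with group as the single term, over 18404 genes, and its code was tested on simulated data. Figures were made with Python 3.11.15, pandas 2.3.3 and matplotlib 3.10.9. Members and lists were chosen with earlier results of these data known. Collagens past the test, their partner chains and the nearest on either side of the threshold are named, and of each further list up to 4 members with the largest change past it. Lists got counts and medians, and no set test. Chain pairs were compared by exact permutation of the 6 arrays. Sequences are from RefSeq, and a comparison of protein sequences was not made. Alternatives were 3 normalizations, a pseudocount of 16, filters on dim genes at the 25th and 50th percentile, other uses of probesets, a trended robust prior, weighting of arrays, a block by replicate number, a stricter threshold of 0.01 and the omission of each array.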

Additional observations from a re-analysis of the deposited data

How the results depend on the processing

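The 8 collagens that fell and COL6A3 kept direction and call in every alternative of the 18 that measured them (COL3A1 in 17 and COL8A1 in 16, since the filters on dim genes drop them). The change of COL4A1 ranged from -1.26 to -1.11 and that of COL6A3 from 0.89 to 0.98. The other 5 increases did not hold throughout. The higher collagens were 6 with the pseudocount or the filter at the 25th percentile. They were 5 with quantile normalization, other uses of probesets or array weights, where COL24A1 was among them in the last. In place of 6 higher collagens, 2 passed with equal array medians, cyclic loess or the replicate block. With the trended prior or a threshold of 0.01 it was 1, and with an array left out 1 to 4. Without menthol array 2 the higher ones were COL6A3, COL14A1 and COL28A1. The filter at the 50th percentile left these 5 increases untested, since they lie at the 26.1st to 45.9th percentile of signal. The higher collagens under that filter were COL6A3 and COL12A1. The collagen median of 0.10 was -0.42 with the filter at the 50th percentile, which leaves only brighter genes, 0.065 with array weights, and 0.031 to 0.14 with an array left out. The cause of the other differences was not tested. At a threshold of 0.01, 2841 of all genes passed in place of 5353.

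Of the lists, fibrillar collagens had 2 calls in place of 4 with equal medians, the filter at the 50th percentile, the replicate block or a threshold of 0.01, and 2 to 3 with an array left out. Short-chain collagens had 1 in place of 2 with equal medians, cyclic loess, the filter at the 25th percentile, the trended prior, array weights, the replicate block or a threshold of 0.01, and 1 to 2 with an array left out. FACIT collagens had 2 in place of 1 under quantile normalization, 0 with the trended prior, array weights, the replicate block or a threshold of 0.01, and 0 to 1 with an array left out. At a threshold of 0.01, 4 of the 8 chain-modifying genes passed, 0 of the 3 export genes, 2 of the 5 propeptide genes, 1 of the 3 receptors and 5 of the 8 fibril-associated genes. The fibril-associated list had 5 calls under cyclic loess or the filter at the 25th percentile and 3 with that at the 50th percentile, where the propeptide list had 2. With an array left out these lists had, in the same order, 5 to 7, 1 to 3, 3 to 6, 1 to 2 and 5 to 7 calls. Genes below the cut of a filter on dim genes were not tested. The counts of all lists under the filters therefore leave out genes such as COL8A1, COL1A2 and DCN.

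Of genes that did not pass, COL6A5 turned to -0.020 under quantile normalization, -0.069 under cyclic loess and -0.022 with array weights. With an array left out COL6A5 ranged from -0.037 to 0.087, COL10A1 from -0.12 to 0.059, COL18A1 from -0.11 to 0.015, COL20A1 from -0.033 to 0.19 and COL23A1 from -0.019 to 0.17. Arrays with the same replicate number deviated together little (r over genes of 0.01, -0.01 and 0.09), so the numbers were not taken as pairs, and the replicate block gave 2483 higher and 2385 lower of all genes. A set of 3 arrays a group and dim probesets limit what can be called among the small differences.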
